A study of Mus musculus with 20 samples.

Results

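Of the 17912 RAD21 peaks called after degradation of CTCF, 4978 (27.8%) lay where RAD21 and CTCF both had a peak in untreated cells and where the CTCF peak was no longer called. These retained RAD21 sites were chosen by 4 deposited peak lists. A site was a RAD21 peak of ΔCTCF that overlapped, by at least 1 bp, a RAD21 peak of WT and a CTCF peak of WT but no CTCF peak of ΔCTCF. They made up 63.1% of the 7893 retained RAD21 peaks, meaning those shared between WT and ΔCTCF. Another 2070 retained peaks still overlapped a CTCF peak of ΔCTCF, 1 of them with no CTCF peak in WT, and 845 had no CTCF peak in either condition. Among the 17912 peaks as a whole, 44.1% had a RAD21 peak of WT beneath them, 41.1% a CTCF peak of WT and 11.9% a CTCF peak of ΔCTCF, and nothing is read from these shares because the sites were selected on them.

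The data are ChIP-seq peak lists from E14 cells, a mouse embryonic stem cell line, grown with LIF and 2i. In every group CTCF carried a degron, so that adding auxin leads to its degradation. WT cells were untreated, ΔCTCF cells received auxin, ΔMAZ cells carried a Maz knockout in the same background and were untreated, and ΔCTCF/ΔMAZ cells carried the knockout and received auxin, for 2 days by the titles of the libraries used. The titles name 1 knockout line, B2, so that line and the loss of MAZ cannot be told apart. Each of the 12 lists covers 1 of 3 antibodies under 1 of 4 conditions, and the other 8 of the 20 samples, a further sample for each CTCF and MAZ group, were not analysed here. No group therefore had a replicate among the lists used, every difference is between single libraries, and the 95% intervals cover counting error over peaks only. The lists hold no expression values, so the labelled cell type was not checked against markers.

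CTCF is a zinc finger protein that binds a long DNA motif and stops cohesin, the ring complex that extrudes chromatin loops. RAD21 is the subunit that closes the cohesin ring. Cohesin is held on one side of CTCF, the side of its N terminus, so that the orientation of the motif decides which way a loop is anchored. MAZ is another zinc finger protein, which binds GC-rich sequence, often at promoters. RAD21 peaks that stay after CTCF has been degraded are places where cohesin is still enriched although its usual barrier is depleted.

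Whether a CTCF peak is called also depends on depth. The lists hold no read totals, and an index of relative depth was taken from the background and the smallest peak width of each list. By this index the CTCF ΔCTCF library had 0.632 times the depth of CTCF WT, and the CTCF ΔCTCF/ΔMAZ library 1.15 times. The RAD21 ΔCTCF library was 2.18 times as deep as RAD21 WT and 2.34 times as deep as RAD21 ΔCTCF/ΔMAZ. When the CTCF WT pileups of the 4978 sites were multiplied by the depth ratio, 99.8% of them still passed 5.63, the lowest −log10 p of the CTCF ΔCTCF list. With 25% of the WT signal above background, 51.9% would have passed, and with 10%, 0.402%. At 8.39, the 5th percentile of −log10 p in that list, the shares were 98.2%, 17.6% and 0%. A missing CTCF peak therefore does not show that CTCF was absent. In bulk cells, occupancy in fewer cells or on fewer alleles and weaker occupancy in every cell cannot be told apart.

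The 5 sequences below are the 5 strongest of the 6 among the 10 strongest sites that carry a match to the CTCF core, and they show where the RAD21 summit of ΔCTCF lay relative to it. The core was searched as CCANNAGNNGGC on both strands, within 50 bp of the CTCF WT summit. Each stretch of 100 bases was read from GRCm38.p6 (mm10) and is given 5′ to 3′ on the strand of the core. The block of capitals is the core, and the single capital downstream of it is the RAD21 summit base of ΔCTCF. Sites are named by the nearest protein-coding gene.
Slc4a3 site (chr1:75653696-75653795, plus strand): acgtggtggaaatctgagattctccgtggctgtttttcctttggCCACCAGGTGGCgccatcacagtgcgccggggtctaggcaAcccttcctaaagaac
Dnah5 site (chr15:28182145-28182244, minus strand): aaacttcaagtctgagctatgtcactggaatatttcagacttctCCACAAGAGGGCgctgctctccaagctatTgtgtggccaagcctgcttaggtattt
Slc16a9 site (chr10:70296952-70297051, minus strand): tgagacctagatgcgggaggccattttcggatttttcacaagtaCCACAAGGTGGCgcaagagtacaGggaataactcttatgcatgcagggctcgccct
Trpm3 site (chr19:22915889-22915988, plus strand): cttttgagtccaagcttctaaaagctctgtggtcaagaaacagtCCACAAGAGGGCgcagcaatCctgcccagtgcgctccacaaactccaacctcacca
Slc52a2 site (chr15:76552848-76552947, plus strand): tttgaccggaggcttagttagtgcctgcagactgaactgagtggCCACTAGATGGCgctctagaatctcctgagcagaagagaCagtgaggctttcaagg

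At these 5 sites the ΔCTCF summit of RAD21 lay 34.5, 23.5, 17.5, 14.5 and 33.5 bp downstream of the middle of the core, in the order printed. In WT it lay 1.5, 17.5, 13.5, 19.5 and 19.5 bp downstream. The summit was thus on the same side of the middle of the core before and after auxin at each of them. At the Slc4a3 site the WT summit lay within the core itself.

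The same position held across the sites. A core lay within 50 bp of the CTCF WT summit at 2504 of the 4978 sites (50.3%, Wilson 95% interval 48.9 to 51.7), against 1.02% of windows of the same length placed 1 kb to either side. In WT, the RAD21 summit lay a median of 20.5 bp (95% interval 19.5 to 21.5) downstream of the middle of the core, and in ΔMAZ also 20.5 bp (20.5 to 21.5, n = 2490). In ΔCTCF, where the CTCF peak was gone, the median was 21.5 bp (20.5 to 22.5, n = 2504). In ΔCTCF/ΔMAZ it was 22.5 bp (20.5 to 24.5) at the 1120 sites with a core that were still called. CTCF summits had their medians on the other side, at −8.5 bp in WT and −10.5 bp in ΔMAZ, with 33.4% and 30.9% of them downstream. Cores on the plus and on the minus strand gave medians of 20.5 and 22.5 bp for RAD21 ΔCTCF.

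What differed after auxin was the spread around that position. The range between the quartiles of the RAD21 offset was 16 bp in WT, 15 bp in ΔMAZ, 28 bp in ΔCTCF and 36 bp in ΔCTCF/ΔMAZ. The summit lay downstream of the middle of the core at 88.7% of the sites in WT (87.4 to 89.8), 83.7% in ΔCTCF (82.2 to 85.1) and 81.2% in ΔCTCF/ΔMAZ (78.9 to 83.4). Sites that kept a CTCF peak in ΔCTCF spread less, with 19 bp between the quartiles in ΔCTCF against 16 bp in WT. Signal strength moved with this spread. Among the sites whose CTCF peak was gone, the quartiles of the ΔCTCF offset were 42.5 bp apart in the weakest of 5 equal groups of RAD21 ΔCTCF fold enrichment and 19 bp apart in the strongest, while the median stayed between 20.5 and 22 bp in all 5. The part of peak strength in the wider spread was not tested. A spread of this kind also occurred without auxin. At the 4675 WT peaks with a core that lost both RAD21 and CTCF, the RAD21 WT summit lay a median of 20.5 bp downstream with quartiles 26 bp apart, and 83.4% (82.3 to 84.4) of the summits were downstream.

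**Figure D1:**
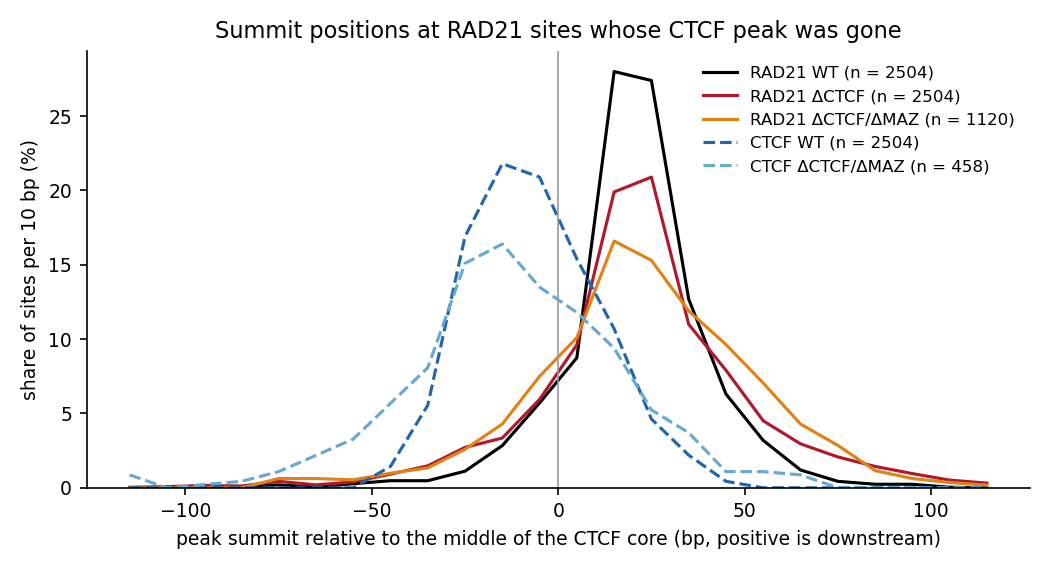
The share of sites per 10 bp (y axis) is plotted against the distance of the peak summit from the middle of the CTCF core (x axis, in bp, positive downstream), for RAD21 (solid lines) and CTCF (dashed lines) at retained RAD21 sites whose CTCF peak was gone. RAD21 summits had medians of 20.5 bp in WT, 21.5 bp in ΔCTCF and 22.5 bp in ΔCTCF/ΔMAZ, with a wider distribution after auxin, while CTCF summits of WT had a median of −8.5 bp.

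Some of these sites had a CTCF peak in the auxin-treated knockout cells, so the position was also examined without them. At the 776 sites with a core that were called in RAD21 ΔCTCF/ΔMAZ and had no CTCF peak in either auxin condition, the RAD21 summit lay 21.5 bp (20.5 to 23.5) downstream in ΔCTCF and 22.5 bp (20.5 to 24.5) in ΔCTCF/ΔMAZ. At the 344 such sites with a CTCF peak in ΔCTCF/ΔMAZ it lay 22.5 bp (20.5 to 23.5) and 21.5 bp (19.5 to 24.5) downstream.

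The shift of the summit was also measured over all sites, without a split by core. All retained peaks had to overlap a RAD21 peak of WT, so a small shift between WT and ΔCTCF is partly set by the choice. At the 4978 sites, the RAD21 summit of ΔCTCF lay within 50 bp of the WT summit at 85.6% (84.6 to 86.5), with a median shift of 19 bp. The share was 93.9% (92.7 to 94.8) at sites that kept a CTCF peak, and 37.3% (34.1 to 40.6) at retained sites without CTCF, whose median shift was 73 bp. The classes also differed in median peak width, with 313 bp where the CTCF peak was gone, 411 bp where it was kept and 461 bp without CTCF. Between WT and ΔMAZ the summit moved a median of 12 bp at the sites whose CTCF peak was gone.

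A core lay within 50 bp of the RAD21 ΔCTCF summit itself at 42.0% of the sites (40.7 to 43.4), against 17.8% of all RAD21 peaks of ΔCTCF. Nothing is read from that gap, because every site was required to have a CTCF peak in WT. Over all CTCF WT summits the share was 45.6% (45 to 46.2), against 50.3% at the CTCF WT summits of the sites. Around the RAD21 ΔCTCF summit a core was found at 47.2% (45.1 to 49.4) of the sites that kept a CTCF peak, at 1.30% (0.728 to 2.32) of retained sites without CTCF and at 1.13% (0.939 to 1.35) of the 10019 RAD21 peaks of ΔCTCF with no RAD21 peak in WT. Measured at the CTCF WT summit, the share was 0.931 percentage points lower than at sites that kept a CTCF peak, and the interval of this difference ran from −3.49 to 1.63.

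In untreated cells these sites stood in the upper part of both lists. Since the WT lists chose them, their ranks there are a description. The median percentile of fold enrichment was 75.5 in RAD21 WT, with a fold enrichment of 16.6 and quartiles of 11.2 and 23.9. In CTCF WT it was 74.2, with a fold enrichment of 19.9 and quartiles of 15.3 and 25.3. Sites that kept a CTCF peak had higher medians, 84.1 and 89.5. Retained sites without CTCF had a median percentile of 9.44 in RAD21 WT. In the RAD21 ΔCTCF list the median fold enrichment was 6.10 at sites whose CTCF peak was gone, 12 where it was kept and 5.43 without CTCF.

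The lists of the untreated knockout cells took no part in the choice. In RAD21 ΔMAZ, 99.3% (4942 of 4978) of the sites were called, against 47.4% of all RAD21 peaks of ΔCTCF, with a median percentile of 77.0 (95% interval 76.4 to 77.7). In CTCF ΔMAZ, 99.3% were called, against 41.1%, with a median percentile of 75.2 (74.3 to 75.6). Neither gap is read, because every site was required to have a RAD21 and a CTCF peak in WT. At sites that kept a CTCF peak, 99.6% were called in RAD21 ΔMAZ and 2069 of 2070 in CTCF ΔMAZ. At WT peaks that lost both RAD21 and CTCF the shares were 83.4% and 91.2%. The high ranks of the sites in WT thus recurred in separate libraries from the other line. For sites that kept a CTCF peak the medians were 86.8 in RAD21 ΔMAZ and 90.6 in CTCF ΔMAZ.

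The limits of the choice can be seen at its edges. The site closest to a CTCF peak of ΔCTCF without touching it lay 64 bp away, and 54 sites (1.08%) lay within 1 kb of one. The median distance was 204 kb. Among the sites that kept a CTCF peak the smallest overlap was 72 bp, and the lowest fold enrichment of that CTCF peak was 4.40. CTCF WT strength overlapped widely between the classes. It reached 62.6 at a site whose CTCF peak was gone and fell to 5.99 at a site where it was kept.

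The 10 sites of highest RAD21 ΔCTCF fold enrichment were called in both RAD21 lists of the knockout line. The first lay on chromosome 1 from 75653482 to 75654117, intergenic and 107514 bp from the nearest coding TSS, that of Slc4a3, an anion exchanger. RAD21 had a fold enrichment of 35.2 (WT), 34.1 (ΔCTCF), 41.3 (ΔMAZ) and 19.2 (ΔCTCF/ΔMAZ), and CTCF had 33.3 in WT, 38.1 in ΔMAZ and 16.9 in ΔCTCF/ΔMAZ. CTCF was thus called there in the auxin-treated knockout cells though not in ΔCTCF.

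The second lay on chromosome 15 from 28181953 to 28182404, 21581 bp from the TSS of Dnah5, a dynein heavy chain of motile cilia. The RAD21 values were 61.3, 32.9, 55.2 and 16.5 in that order of conditions. CTCF had only 11.3 in WT, a percentile of 41.1, and no peak in either auxin condition. The third, on chromosome 10 from 70296710 to 70297336 and 51884 bp from the TSS of Slc16a9, a transporter of the monocarboxylate family, had RAD21 at 49.7, 32.4, 42.6 and 27 in the same order and CTCF at 10.8 in WT, a percentile of 38.9, and 6.95 in ΔCTCF/ΔMAZ. At these 2 sites the RAD21 WT percentiles were 99.9 and 99.4, so RAD21 ranked far higher than CTCF.

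The fourth lay on chromosome 18 with Smad2 as its nearest coding gene, and its RAD21 fold enrichment was 61.3, 31.4, 46.3 and 17.4. The fifth lay in an intron of Sp9, a transcription factor of forebrain interneurons, on chromosome 2 from 73278405 to 73278948, with 46.9, 30.1, 43.1 and 16.6. The sixth lay in an intron of Trpm3, a cation channel, on chromosome 19 from 22915743 to 22916219, with 60.4, 28.4, 58.9 and 27.7. The remaining 4, nearest to Iqcf6, Slc52a2, Trp53rkb and Asah2, had 26.6 to 28.3 in ΔCTCF and 16.2 to 25 in ΔCTCF/ΔMAZ. At the Slc52a2 site, next to the gene of a riboflavin transporter, the value was 20 in WT and 27.8 in ΔCTCF. Among WT, ΔCTCF and ΔCTCF/ΔMAZ, the other 9 had their highest value in WT and their lowest in ΔCTCF/ΔMAZ, although fold enrichments of different libraries are not on one scale. None of the 10 overlapped a MAZ peak of WT or ΔCTCF, and 5 overlapped a CTCF peak of ΔCTCF/ΔMAZ.

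**Figure D2:**
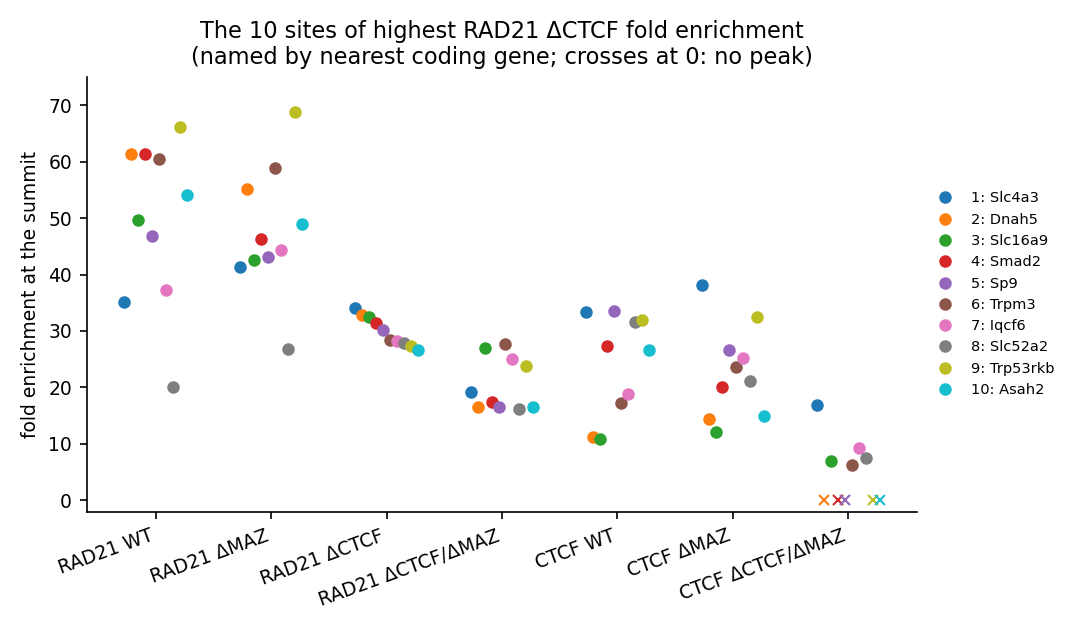
The fold enrichment at the summit (y axis) is plotted for the 10 sites of highest RAD21 ΔCTCF fold enrichment (colours, named by the nearest coding gene) in each RAD21 and CTCF list that called them, with a cross at 0 where a list held no peak. In RAD21 ΔCTCF the 10 lie between 26.6 and 34.1 because they were ranked by it, and 5 of them have no CTCF peak in ΔCTCF/ΔMAZ.

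To follow these sites when MAZ was missing as well, they were looked up in RAD21 ΔCTCF/ΔMAZ. Of the 4978 sites, 2172 were called there (43.6%), against 29.5% of all RAD21 peaks of ΔCTCF. The share was 83.7% (1733 of 2070) for sites that kept a CTCF peak in ΔCTCF, a difference of −40.1 percentage points (Newcombe 95% interval −42.1 to −37.9). It was 34.8% (294 of 845) for retained sites without CTCF, and the difference was 8.84 points (5.29 to 12.3). With RAD21 lists scaled to the shallowest depth the share of the sites whose CTCF peak was gone was 47.4%, and with equally long RAD21 lists of 6400 peaks it was 66.3% of 2088 sites.

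**Figure D3:**
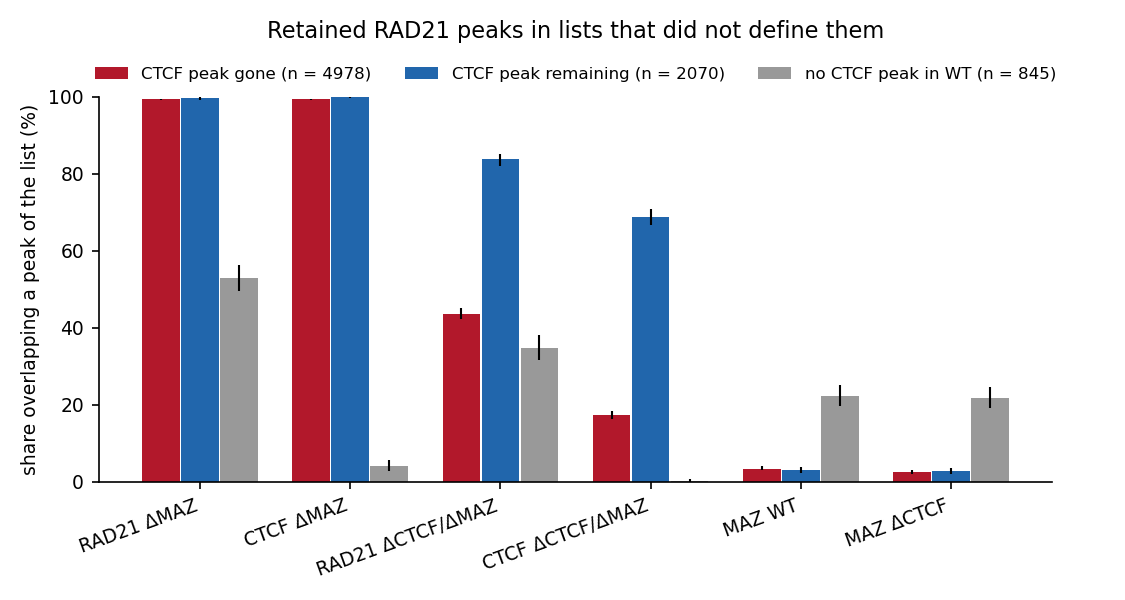
Bars give the share (y axis, %) of 3 classes of retained RAD21 peaks that overlapped a peak of each list on the x axis, with Wilson 95% intervals that cover counting error only. In RAD21 ΔCTCF/ΔMAZ the shares were 43.6% where the CTCF peak was gone, 83.7% where it remained and 34.8% where WT had none.

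Part of this gap went with peak strength. RAD21 peaks of ΔCTCF were ranked by fold enrichment and cut into 5 groups of equal size. Starting with the weakest group, 11.3%, 16.6%, 22%, 35.6% and 78.8% of the sites whose CTCF peak was gone were called in ΔCTCF/ΔMAZ. Where a CTCF peak was kept, the shares were 28.6%, 34%, 38.6%, 56.8% and 93.3%. In each group the sites with a remaining CTCF peak were called more often, although in the weakest group the intervals of the single shares overlapped, with only 21 sites of that class. Over the groups, the odds of being called at sites whose CTCF peak was gone were 0.336 times those at sites where it was kept (Mantel-Haenszel, 0.289 to 0.391). With equally long RAD21 lists the ratio was 0.563, and the difference between the shares was −25.5 points. Finer groups brought the ratio closer to 1, with 0.456 for 10 groups and, in a number of groups chosen after seeing the data, 0.500 for 50. The ratio was 0.160 (0.139 to 0.185) within 5 groups of RAD21 ΔMAZ strength, so its size depended on the list that set the groups.

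Against retained sites without CTCF the pooled ratio was 0.989 (0.835 to 1.17), which averaged differences of opposite sign. In the strongest group 78.8% (76.8 to 80.7) of the sites whose CTCF peak was gone were called against 66% (58.1 to 73.1) of those without CTCF. In the next group the shares were 35.6% (33.2 to 38.1) and 42% (36.4 to 47.8), with overlapping intervals.

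**Figure D4:**
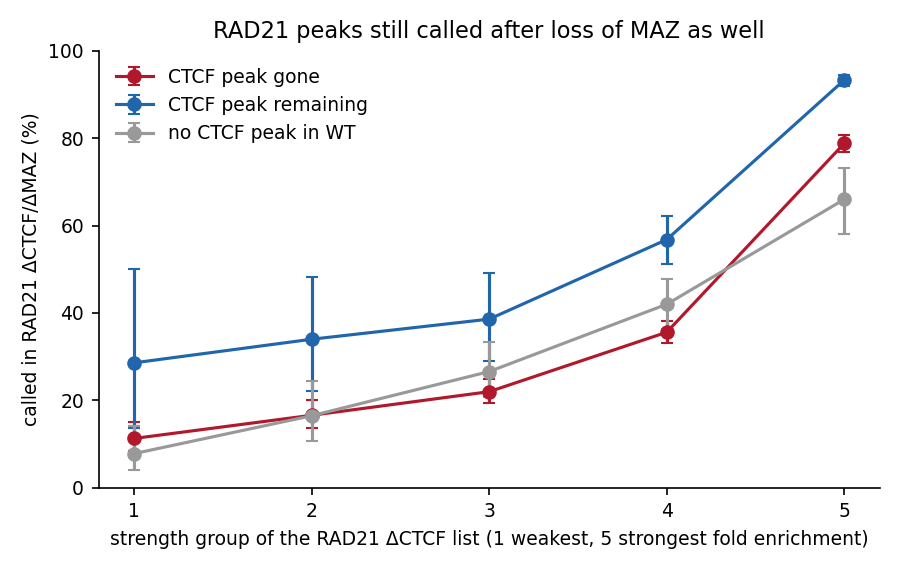
The share of retained RAD21 peaks called in RAD21 ΔCTCF/ΔMAZ (y axis, %, with Wilson 95% intervals) is plotted for 5 equal groups of RAD21 ΔCTCF fold enrichment (x axis, weakest to strongest) in 3 classes. Sites whose CTCF peak was gone went from 11.3% to 78.8% and sites with a remaining CTCF peak from 28.6% to 93.3%.

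The 5 strongest sites that were not called in ΔCTCF/ΔMAZ all lay in the strongest of the 5 groups. The first lay in an intron of Sdsl, a serine dehydratase relative, on chromosome 5 from 120464302 to 120464708, with RAD21 at 12.2 in WT, 16.2 in ΔCTCF and 13.1 in ΔMAZ. The second lay on chromosome 19 from 57328855 to 57329264, 14152 bp from the TSS of Ablim1, which encodes an actin-binding protein, with 39.1, 14.5 and 30.1. The next 3 had 13.8, 13.3 and 13.3 in ΔCTCF. Their nearest coding genes were Cd55b, Arl4a and Dtnbp1, which encodes dysbindin. No CTCF peak of ΔCTCF/ΔMAZ and no MAZ peak was called at any of these 5.

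CTCF was found again at some of the sites in the other auxin-treated cells. A CTCF peak of ΔCTCF/ΔMAZ overlapped 857 of the 4978 sites (17.2%, 16.2 to 18.3), against 13.1% of all RAD21 peaks of ΔCTCF and 68.7% of sites that kept a CTCF peak in ΔCTCF. That CTCF library was 1.81 times as deep as CTCF ΔCTCF, and the part of depth in this share was not tested. The CTCF peaks were weak for their list, with a median percentile of 37.0 (32.8 to 38.8). RAD21 ΔCTCF/ΔMAZ was called at 74.6% (639 of 857) of these sites and at 37.2% (1533 of 4121) of the others. At like RAD21 ΔCTCF strength the odds ratio, with against without the CTCF peak, was 2.96 (2.45 to 3.58). Sites with no CTCF peak in either auxin condition thus numbered 4121.

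The same definition was applied within the knockout line. In RAD21 ΔCTCF/ΔMAZ, 2148 of 6400 peaks (33.6%) overlapped a RAD21 and a CTCF peak of ΔMAZ and no CTCF peak of ΔCTCF/ΔMAZ. They were 45.9% of the 4679 RAD21 peaks shared with ΔMAZ, against 63.1% for the parental line. RAD21 ΔCTCF was 2.34 times as deep as RAD21 ΔCTCF/ΔMAZ, while CTCF ΔCTCF/ΔMAZ was 1.81 times as deep as CTCF ΔCTCF. The part of depth in these shares was not tested. Of the 2148 sites, 1520 (70.8%) overlapped a site of the parental line, and 1521 of the 4978 parental sites (30.6%) overlapped one of the knockout line. The matching shares over all peaks of the RAD21 lists were not counted, so these overlaps are a description only. A further 425 (19.8%) lay where the parental line had kept a CTCF peak, and 177 (8.24%) overlapped no RAD21 peak of ΔCTCF.

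MAZ peaks were rare at these sites. A MAZ peak of WT overlapped 170 sites (3.42%, 2.95 to 3.96), against 11.1% of all RAD21 peaks of ΔCTCF, and a MAZ peak of ΔCTCF overlapped 123 (2.47%, 2.07 to 2.94), against 11.9%. Both shares varied with the definition of overlap and the peak threshold, from 1.04% to 4.76% for WT and from 0.518% to 3.96% for ΔCTCF. At retained sites without CTCF, the MAZ ΔCTCF share was 21.8%, 19.3 points higher (16.6 to 22.2). At sites that kept a CTCF peak it was 2.71%, a difference of −0.234 points (−1.12 to 0.540). MAZ peaks of both conditions were present at 94 sites, of either at 199 and of neither at 4779. No site overlapped a peak of the knockout MAZ lists, which allows a share of up to 0.0603%, taken as 3 counts of 4978 (the Wilson upper limit is 0.0771%). Those lists held 33 peaks each, at 0.345 and 0.292 times the depth of MAZ WT, and MAZ ΔCTCF had 0.377 times that depth.

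Whether sites with a MAZ peak were still called without MAZ was then examined. Of the 123 with a MAZ peak of ΔCTCF, 60 (48.8%) were called in RAD21 ΔCTCF/ΔMAZ, and of the 4855 others 2112 (43.5%), a difference of 5.28 points (−3.50 to 14.1). At like strength the odds ratio, with against without a MAZ peak, was 1.73 (1.15 to 2.60), and for a MAZ peak of WT it was 1.79 (1.25 to 2.57). In these libraries the share called was thus not lower at sites with a MAZ peak, on the basis of at most 170 such sites. The interval of the difference in shares also included lower values, and promoter position was not a stratum. The part of MAZ was not tested.

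The 5 sites with a MAZ peak of ΔCTCF of highest RAD21 fold enrichment were all called in RAD21 ΔCTCF/ΔMAZ. The first lay 20 bp upstream of the TSS of Bcl2l1, an inhibitor of apoptosis, on chromosome 2 from 152831479 to 152832044. RAD21 had 34.6 (WT), 22.9 (ΔCTCF), 38.8 (ΔMAZ) and 15.2 (ΔCTCF/ΔMAZ). MAZ had 6.22 in WT and 7.57 in ΔCTCF, and CTCF had 27.6 in WT and 14.2 in ΔCTCF/ΔMAZ. The second lay 779 bp upstream of a TSS of Pou2f2, a POU transcription factor of lymphoid cells, on chromosome 7 from 25133038 to 25133633. RAD21 had 45.6, 19.6, 32.8 and 16.7 in the same order, and MAZ had 9.46 in WT and 10.7 in ΔCTCF.

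The Pou2f2 sequence is shown as an example from the strongest sites with a MAZ peak. Its RAD21 summit, the only capital, lay where the strict search string had no match. The Bcl2l1 site had no match either, and its sequence is not printed. Bases 38 to 49 of the Pou2f2 stretch differ from that string at 1 fixed base.
Pou2f2 site (chr7:25133241-25133340, plus strand): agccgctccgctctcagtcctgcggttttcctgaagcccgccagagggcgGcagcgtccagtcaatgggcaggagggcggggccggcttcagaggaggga

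The other 3 sites with a MAZ peak of ΔCTCF lay 6111 bp from the TSS of Taar6, a trace amine receptor, 127 bp upstream of that of Lsm11, a subunit of the particle that processes histone mRNA, and 448234 bp from that of Insc. Their RAD21 fold enrichment was 18.3, 18 and 15 in ΔCTCF and 11.4, 13.9 and 16 in ΔCTCF/ΔMAZ. At the Lsm11 site CTCF had 57.3 in WT, a percentile of 99.9, and no peak after auxin.

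Most of the sites lay away from genes' starts. At 621 sites the summit lay 1 kb or less from a TSS (12.5%, 11.6 to 13.4), against 26.2% of all RAD21 peaks of ΔCTCF, and the share was 13.4% (12 to 15) where a CTCF peak was kept, 28.6% (25.7 to 31.8) without CTCF and 35.4% (34.5 to 36.4) among those with no RAD21 peak in WT. Exons outside promoters held 4.06%, introns 34.4% and intergenic sequence 49.1% of the sites. The median distance to a TSS was 10 kb, with quartiles of 3.36 and 23.4 kb. The sites had 4374 different nearest genes, and 73 genes were nearest to 3 or more. Pde4d, a cAMP phosphodiesterase gene, and the annotated locus Gm48176 had 5 each.

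Promoter sites carried most of the MAZ peaks. A MAZ peak of ΔCTCF overlapped 82 of 621 promoter sites (13.2%) and 41 of 4357 others (0.941%). RAD21 ΔCTCF/ΔMAZ was called at 46.7% (42.8 to 50.6) of the promoter sites and at 43.2% (41.7 to 44.7) of the others. These splits were not counted over all RAD21 peaks of ΔCTCF, so they are not read as particular to the sites. Of the strongest sites within 1 kb of a coding TSS, the first lay 111 bp upstream of Fam19a2, a secreted chemokine-like protein, with RAD21 at 64.1 in WT, 26.2 in ΔCTCF and 12.3 in ΔCTCF/ΔMAZ. The second lay 126 bp upstream of Otos, a gene of the inner ear, with 28.7, 26 and 22.4. The Bcl2l1 and Pou2f2 sites followed, and the fifth lay 999 bp inside Fes, a tyrosine kinase gene, with 32, 18.8 and 10.5.

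To see how sites that kept RAD21 differed from those that lost it, the 15329 RAD21 peaks of WT with a CTCF peak in WT and none in ΔCTCF were split. RAD21 was still called in ΔCTCF at 4995 of them (32.6%), and 10334 were lost. The 4995 are counted as WT peaks, with CTCF overlap taken at the WT peak, so their number is not that of the sites. Over 5 groups of RAD21 WT fold enrichment the share kept lay between 7.90% (weakest) and 73.1% (strongest), a description of the lists that chose the sites. Features that the choice did not use were therefore compared within these groups, by Mantel-Haenszel odds ratios.

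The same split appeared in the knockout line. RAD21 ΔCTCF/ΔMAZ was called at 43.4% (42.0 to 44.7) of kept and 1.77% (1.53 to 2.04) of lost peaks, with 25.1 times the odds (21.2 to 29.8) at like RAD21 WT strength. A CTCF peak of ΔCTCF/ΔMAZ overlapped 17.2% of kept and 0.784% of lost peaks, with 23.6 times the odds (17.9 to 31.1). Both ratios stayed above 10 when groups of CTCF WT strength were added, at 19.9 and 14.0. Kept sites had a median percentile of 77.0 in RAD21 ΔMAZ and 75.2 in CTCF ΔMAZ, and lost sites of 47.0 and 50.8. These medians are not matched for strength and cover only peaks called in those lists, 4957 and 4958 of the 4995 kept and 8618 and 9423 of the 10334 lost.

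The sequence of the sites differed as well. A CTCF core lay at 50.2% of kept and 45.2% of lost sites, with an odds ratio of 1.26 (1.17 to 1.36). The commonest form of the core, ccagaagagggc, made up 16.6% (15.2 to 18.1) of the cores of kept sites and 29.2% (28 to 30.6) of those of lost sites, with an odds ratio of 0.669 (0.583 to 0.768). This form lay mostly in sequence that the genome file marks as repeat, with the RAD21 summit in repeat at 62.6% of kept and 68.7% of lost sites that had it, against 9.27% and 16% with another core. Over all sites, the summit lay in repeat at 13.1% of kept and 21.3% of lost sites (odds ratio 0.747, 0.672 to 0.831).

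Kept sites were also richer in CpG and lay more often within 1 kb of a TSS. There were 3 or more CpG within 50 bp of the RAD21 WT summit at 40.5% (39.1 to 41.8) of kept and 23.5% (22.7 to 24.4) of lost sites, with an odds ratio of 2.24 (2.06 to 2.44). The summit lay within 1 kb of a TSS at 12.6% and 8.16%, with a ratio of 2.06 (1.82 to 2.33), or 1.60 (1.40 to 1.82) with CpG as a further stratum. A MAZ peak of WT overlapped 3.28% (2.82 to 3.81) of kept and 0.745% (0.597 to 0.930) of lost peaks. The odds ratio was 6.75 (4.90 to 9.30), and 4.65 (3.38 to 6.40) when promoter position was a further stratum. For MAZ peaks of ΔCTCF it was 7.42 (5.05 to 10.9), and 4.79 with promoter position. MAZ was thus more frequent where RAD21 was kept, although only 164 of the 4995 kept peaks had a MAZ peak of WT.

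**Figure D5:**
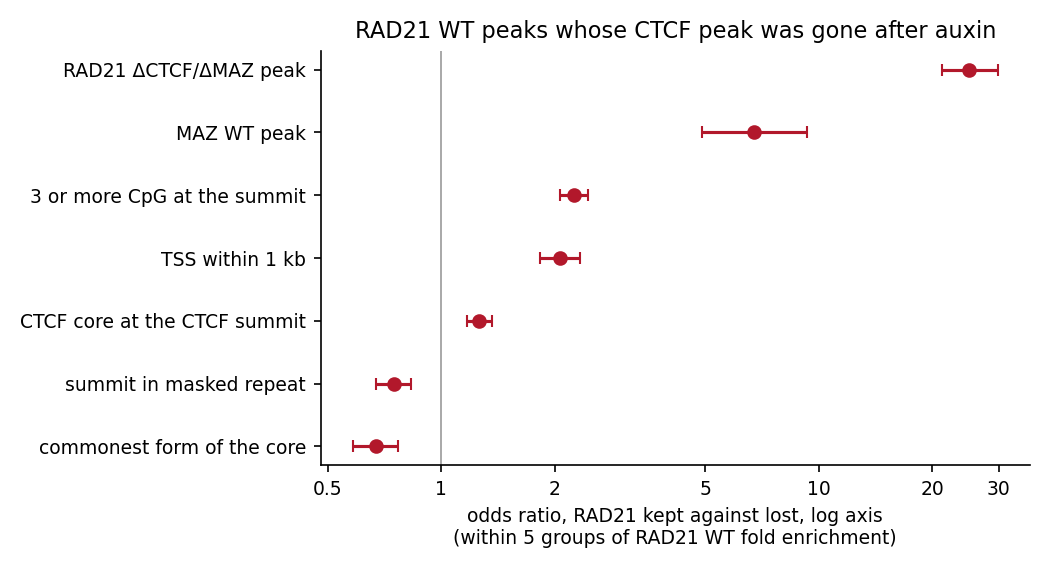
Points give Mantel-Haenszel odds ratios (x axis, log scale) with 95% intervals for 7 features of RAD21 WT peaks whose CTCF peak was gone after auxin, comparing 4995 that kept RAD21 in ΔCTCF with 10334 that lost it, within 5 groups of RAD21 WT fold enrichment. The ratios run from 0.669 for the commonest form of the core to 25.1 for a RAD21 peak in ΔCTCF/ΔMAZ, and a ratio above 1 means more frequent where RAD21 was kept.

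The sites were looked up at genes known for their regulation in stem cells or development, counted where the summit lay in the gene or within 5 kb of a TSS. At 28 pluripotency genes there were 2 sites among 52 RAD21 peaks of ΔCTCF, both called in ΔCTCF/ΔMAZ. By the same position rule over all annotated genes, 3041 of 12251 RAD21 peaks of ΔCTCF (24.8%) were such sites, and 42.4% of these sites were called in ΔCTCF/ΔMAZ. At Tbx3, a T-box factor, RAD21 had 8.69 (WT), 9.04 (ΔCTCF), 10.2 (ΔMAZ) and 4.80 (ΔCTCF/ΔMAZ), 28 bp upstream of the TSS and with a MAZ peak in WT and ΔCTCF. At Esrrb, a nuclear receptor gene of naive pluripotency, the site lay in an intron with 11.8, 6.75, 21.2 and 5.71.

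At 23 genes of cohesin and insulator proteins there were 3 sites among 25 RAD21 peaks, at Top2b, a topoisomerase gene, and at Stag1 and Smc3, which encode cohesin subunits. Only the Stag1 site, 11 bp downstream of the TSS, was called in ΔCTCF/ΔMAZ, with RAD21 at 11.8, 5, 6.56 and 5.49 in the same order. At 39 Hox genes there were 4 sites among 23 peaks, of which only that at Hoxb5 was called in ΔCTCF/ΔMAZ (17, 7.62, 25.5 and 7.78 in the same order). The sites at Hoxb8, Hoxa13 and Hoxa3 had 7.48, 6.86 and 4.75 in ΔCTCF and no peak in ΔCTCF/ΔMAZ.

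At 44 imprinted genes, of which only the copy from one parent is active, there were 12 sites among 42 peaks, and 6 were called in ΔCTCF/ΔMAZ. The strongest was near Phlda2, a growth-restraining gene, on chromosome 7 from 143506683 to 143507101, with RAD21 at 41.3, 17.6, 41.3 and 11. Sites at Trappc9, H13 and Meg3 were also called there, with 6.41, 9.61 and 5.49, and the site in Kcnq1 was not. At 32 developmental genes under long-range control there were 7 sites among 34 peaks, and 3 were called. The site 1938 bp from the TSS of Myc, a growth regulator, had 26, 6.72, 19.6 and 8.53, and sites at Tsix, Runx1 and Shh, a secreted morphogen gene, were not called in ΔCTCF/ΔMAZ. At 38 transcription factor genes of other lineages there were 5 sites among 22 peaks and 1 was called, in an intron of Pax5, with 7.52, 10.9, 12.7 and 4.05. No list was tested against the other genes.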

How the data were processed

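ChIP-seq of CTCF, MAZ and RAD21 was deposited as 1 narrow peak list per antibody and condition. The authors used Bowtie 2 for mapping to mm10, SAMtools for quality filtering and for taking out duplicates, and MACS at default settings for peaks. Each list belongs to 1 sample. In the main figure of these conditions the authors show a representative replicate for CTCF and MAZ, and they state 1 biological replicate for RAD21. Whether an input control entered is not stated. Scaling by spike-in or total reads is described for heat maps, density plots and tracks, not for peak calling. Per the deposited columns, fold enrichment is the ratio of pileup to local background at the summit and was ranked within a list only. Each deposited −log10 p or −log10 q belongs to a peak in its own library, and the deposited score was not used.

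Overlaps of at least 1 bp were counted with Python 3.11.15 and differed for 0 peaks from bedtools 2.31.1 over 11 list pairs. Where several peaks overlapped, the strongest was taken. Pileup and background at each summit were solved from fold enrichment and −log10 p. The lowest background over the smallest peak width gave the depth index. Genes and TSSs came from GENCODE M21 (basic set), and sequence and repeat masking from GRCm38.p6. Shares have Wilson, differences Newcombe and odds ratios Mantel-Haenszel 95% intervals, and medians binomial ones. With 1 list per group no p-value was computed. Code was tested on simulated data. Named sites are the 10 of highest RAD21 ΔCTCF fold enrichment, the 5 highest not called in ΔCTCF/ΔMAZ, with a MAZ ΔCTCF peak, or within 1 kb of a coding TSS, and up to 5 per gene list. The members, gene lists and tests were chosen with earlier results of these data known. The comparison of kept with lost RAD21 peaks, the core forms and the CTCF detection limits were added after seeing the data.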

Additional observations from a re-analysis of the deposited data

How the results depend on the processing

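No paired analysis was possible because there was 1 peak list per group among those used, although the CTCF and MAZ groups each have a further sample not analysed here. Alternatives gave 94 values for 16 results. Of these, 50 lay within the 95% interval of the reported value (for the number of sites, within 1.5 times) and 44 moved beyond it. A change of direction was defined only for the odds ratio and the difference to sites with a remaining CTCF peak. It occurred at 0 of their values. The intervals cover counting error alone and are narrow, and the cause of a move was not tested.

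With equal numbers of strongest RAD21 peaks there were 2088 sites. Of these, 66.3% were called in RAD21 ΔCTCF/ΔMAZ, 91.8% in RAD21 ΔMAZ, 99.9% in CTCF ΔMAZ, 24.0% in CTCF ΔCTCF/ΔMAZ, 2.44% in MAZ WT and 1.34% in MAZ ΔCTCF, the difference to sites with a remaining CTCF peak was −25.5 points and the odds ratio 0.563. With RAD21 lists scaled to the shallowest depth, the first 4 shares were 47.4%, 99.6%, 99.5% and 18.7%, the difference −37.1 points and the odds ratio 0.420. A −log10 q of at least 5 in every list gave 41.9% in RAD21 ΔCTCF/ΔMAZ, 2.49% in MAZ WT and 1.5% in MAZ ΔCTCF. With 10 as the limit these were 38.3%, 1.04% and 0.518%, with 13.4% in CTCF ΔCTCF/ΔMAZ, a difference of −45.1 points and an odds ratio of 0.401. A reciprocal overlap of 50% gave 98.8% in RAD21 ΔMAZ, 96.6% in CTCF ΔMAZ, 13.2% in CTCF ΔCTCF/ΔMAZ, 1.55% in MAZ WT, 0.974% in MAZ ΔCTCF and a difference of −33.3 points. A gap of 500 bp gave 99.0% in RAD21 ΔMAZ and in CTCF ΔMAZ, 4.76% in MAZ WT and 3.96% in MAZ ΔCTCF. Without sites that had a CTCF peak in ΔCTCF/ΔMAZ, 37.2% were called in RAD21 ΔCTCF/ΔMAZ, the difference was −46.5 points and the odds ratio 0.277. The odds ratio was 0.456 over 10 strength groups and, chosen after seeing the data, 0.488 over 20 and 0.500 over 50. The promoter share was 20.2% for 2.5 kb and 8.68% for 500 bp. The core share was 51% within 100 bp and 50.3% at the CTCF WT summit. The RAD21 offset of 21.5 bp and the 4 ranks kept within their intervals under their alternatives.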
